A study of Homo sapiens with 24 samples.

Results

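The EGF family ligands are secreted or membrane-held growth factors that switch on the ERBB receptors, and 7 of their genes, AREG, EREG, EPGN, HBEGF, TGFA, BTC and NRG1, were followed here among the 19702 genes measured. They were taken by symbol as a list. RNA was sequenced from 2 human lung adenocarcinoma lines: PC9, which carries an activating in-frame deletion in EGFR, and H1975, which carries an activating EGFR substitution together with the gatekeeper substitution that blocks earlier EGFR inhibitors. Both lines therefore have a mutant EGFR in every group, the controls included. Each line was kept for 24 h under 4 conditions with 3 libraries each: almonertinib (2 nM in PC9, 1 nM in H1975), a covalent inhibitor of mutant EGFR; paclitaxel (0.3 nM in PC9, 1 nM in H1975), which stabilises microtubules and arrests dividing cells; both drugs together, for which no separate doses are given; and a control that the labels do not describe further. The doses differ between the lines, so a difference in response between PC9 and H1975 cannot be told apart from a difference in dose. The labels number the repeats but do not say that they came from separate cultures, so p-values measure the spread between libraries, which may be technical.

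AREG (amphiregulin), EREG (epiregulin), EPGN (epigen), HBEGF (heparin-binding EGF-like growth factor), TGFA (transforming growth factor alpha) and BTC (betacellulin) bind EGFR. EREG, HBEGF and BTC also bind ERBB4, and NRG1 (neuregulin) binds ERBB3 and ERBB4 but not EGFR. All are made as membrane precursors that metalloproteases, chiefly ADAM17 and ADAM10, cut from the cell surface. In epithelial cells ERK signalling below EGFR raises transcription of several of these genes, so that ligand output and receptor activity form an autocrine loop.

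Of the 7 genes, 4 lie on chromosome 4 (GRCh38): EPGN at chr4:74308473-74315307, EREG at chr4:74365143-74388751 and AREG at chr4:74445134-74455009 on the plus strand, and BTC at chr4:74744759-74794686 on the minus strand. HBEGF lies at chr5:140332843-140346631 and TGFA at chr2:70447280-70554193, both on the minus strand. The 250 bases before the RefSeq start are printed for AREG, EREG and HBEGF, the EGFR ligands whose mRNA changed most, read 5′ to 3′ on the gene's strand (RefSeq, GRCh38.p14). Capitals mark matches to 5 motifs searched on both strands: AP-1 (TGANTCA), CRE (TGACGTCA), TEAD (GGAATG), GC box (GGGCGG) and TATA box (TATAAA).
AREG, chr4:74444886-74445135, plus strand: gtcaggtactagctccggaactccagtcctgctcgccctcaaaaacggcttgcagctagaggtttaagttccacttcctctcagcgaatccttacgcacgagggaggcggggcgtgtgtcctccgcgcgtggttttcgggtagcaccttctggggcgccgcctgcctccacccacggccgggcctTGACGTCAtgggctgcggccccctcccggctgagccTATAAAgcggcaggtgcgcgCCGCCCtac
EREG, chr4:74364895-74365144, plus strand: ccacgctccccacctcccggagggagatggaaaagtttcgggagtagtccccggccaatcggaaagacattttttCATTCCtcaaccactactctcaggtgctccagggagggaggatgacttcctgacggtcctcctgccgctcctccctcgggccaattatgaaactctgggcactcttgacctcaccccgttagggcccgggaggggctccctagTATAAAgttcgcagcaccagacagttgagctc
HBEGF, chr5:140346604-140346853, minus strand: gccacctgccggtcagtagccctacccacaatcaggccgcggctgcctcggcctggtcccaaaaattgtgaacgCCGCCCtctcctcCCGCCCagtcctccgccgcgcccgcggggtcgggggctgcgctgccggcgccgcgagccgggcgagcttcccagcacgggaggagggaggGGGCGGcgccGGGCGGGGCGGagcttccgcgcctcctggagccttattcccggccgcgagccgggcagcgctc

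The AREG window held a CRE, the palindrome bound by CREB, with its first base at position -65 from the start, a TATA box at -29 and a GC box on the opposite strand at -9. EREG held a TATA box at -32 and a TEAD motif on the opposite strand at -175. HBEGF held 5 GC boxes and none of the other motifs, and its GC content was 76.4%, against 65.2% for AREG and 58.0% for EREG. NRG1 covers chr8:31639386-32767959 on the plus strand and is only named. EPGN held a TATA box at -29, BTC held none of the motifs, and TGFA has 2 promoters in the table, of which 1 held 3 GC boxes. Of 35116 RefSeq promoter windows of this length, 1.65% held the CRE, 10.7% the TATA box, 11.9% the TEAD motif, 42.6% the GC box and 6.57% the AP-1 motif. A match describes letters only.

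The table gives raw read counts, with totals of 14232299 to 24245314 per library. Levels below are CPM, counts scaled by the size of the library after TMM normalisation. Epithelial markers were abundant in all 24 libraries (KRT8 from 1351 to 10229 CPM) and of the markers of other cell types PTPRC, CD3E and DCN reached at most 1 read in any library. Others were present at low levels, with COL1A1 at 5.57 to 22.7 CPM, CDH5 at 1.61 to 8.87 CPM and CD79A at up to 16.6 CPM, and their part in the results was not tested. Repeats of H1975 varied more (biological coefficient of variation 0.191) than those of PC9 (0.111). Of the 24 libraries, 4 stood apart, being the library farthest from the other repeats of its group at a median distance of at least 0.25 on the log2 scale: H1975 almonertinib 1, H1975 control 3, H1975 paclitaxel 1 and PC9 almonertinib 3. H1975 almonertinib 2 and 3 also lay past that distance (0.299 and 0.351), but only the farthest library of each group was taken. Results in H1975 are therefore also given without the 4 libraries that stood apart, a choice made after seeing the data. In bulk RNA, fewer cells of a kind and less RNA per cell cannot be told apart, and the strand that was counted is not given in the sources used here, so reads of overlapping antisense genes cannot be separated.

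**Figure D1:**
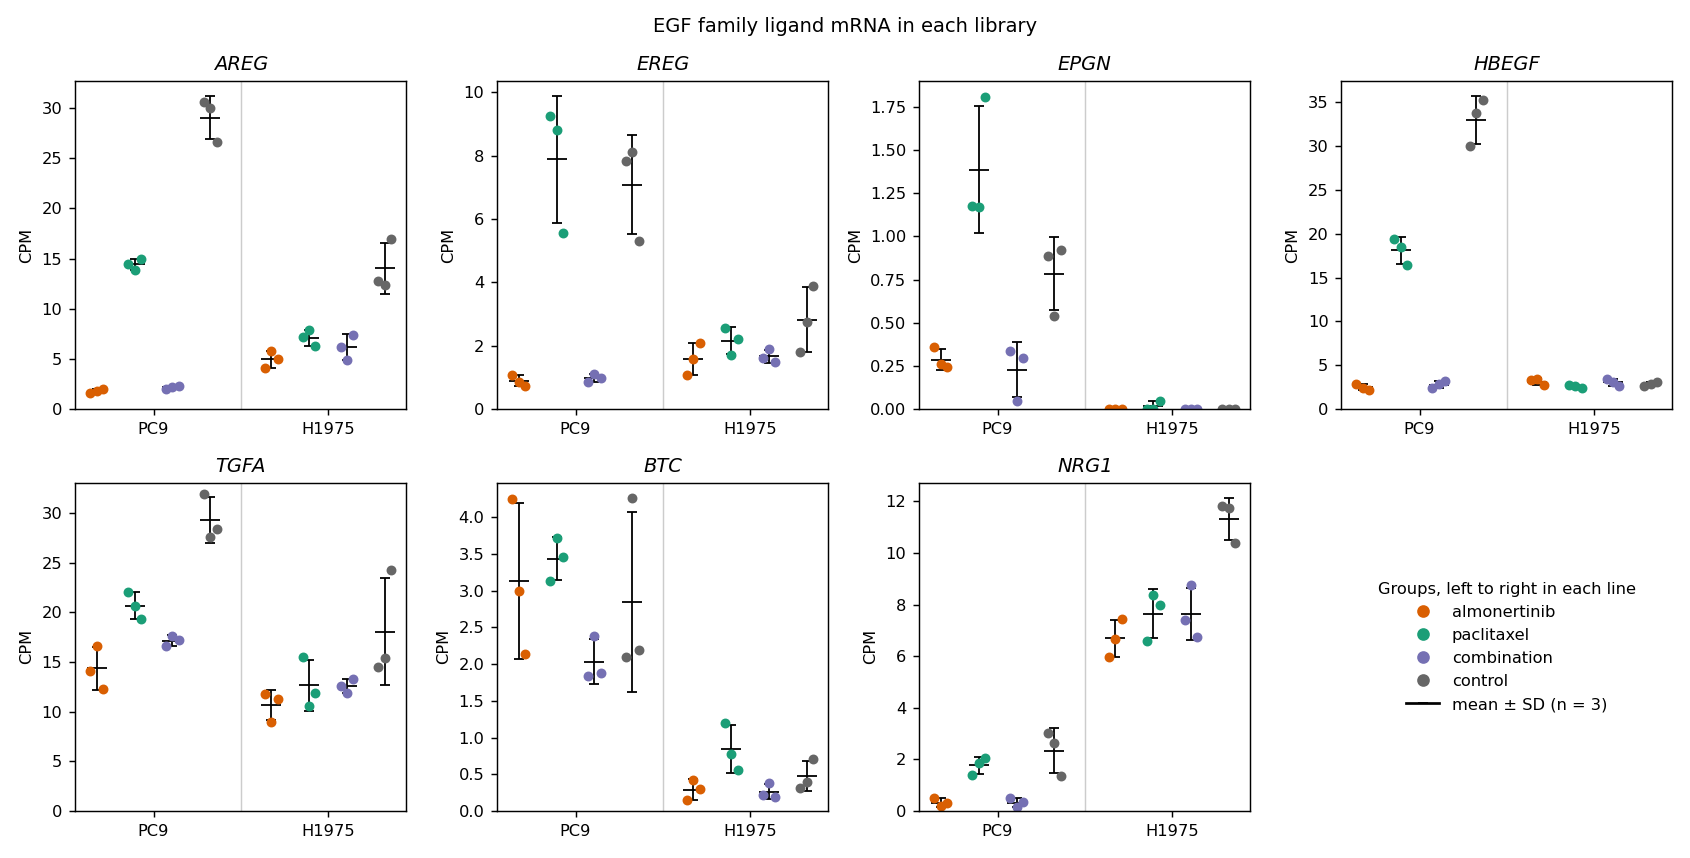
Level of each ligand in each library, in CPM (linear axis from 0, its own scale for each gene), for almonertinib, paclitaxel, combination and control from left to right in PC9 and in H1975. Points are libraries, and bars show the mean ± SD of 3. In PC9 almonertinib and combination libraries AREG stays between 1.59 and 2.33 CPM, against 26.6 to 30.5 CPM in PC9 control libraries.

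Under almonertinib PC9 cells lost most of their EGFR ligand mRNA: AREG and HBEGF fell more than 10-fold and EREG nearly 8-fold. AREG was at 1.59, 1.83 and 2.04 CPM in almonertinib libraries, against 30.5, 30.0 and 26.6 CPM in control libraries. HBEGF was at 2.87, 2.44 and 2.24 CPM in almonertinib libraries, against 30.0, 33.7 and 35.3 CPM in control libraries. The groups were far apart for both genes, and the log2 fold change was -3.98 ± 0.15 (SE) for AREG and -3.71 ± 0.15 for HBEGF (edgeR quasi-likelihood test, adjusted p = 4.15e-12 and 1.48e-11). EREG was at 1.07, 0.870 and 0.729 CPM in almonertinib libraries, against 7.84, 8.12 and 5.31 CPM in control libraries, without overlap (-2.99 ± 0.26, edgeR adjusted p = 9.78e-08). By the size of their fold change AREG was the 41st lowest, HBEGF the 55th and EREG the 95th of the 12796 genes tested.

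TGFA, the ligand first found in transformed cells, fell less in PC9. It was at 14.1, 16.6 and 12.3 CPM in almonertinib libraries, against 31.9, 27.6 and 28.4 CPM in control libraries, a 2.03-fold difference without overlap (-1.02 ± 0.12, edgeR adjusted p = 2.35e-06). NRG1, the ERBB3 ligand, is scarce in this line: it had 10, 4 and 6 reads in almonertinib libraries and 58, 39 and 19 reads in control libraries. It fell by 2.87 ± 0.42 on the log2 scale (edgeR adjusted p = 2.56e-05). EPGN had 7, 6 and 5 reads in almonertinib libraries and 17, 8 and 13 reads in control libraries, and its change of -1.44 ± 0.46 passed the test (edgeR adjusted p = 0.0137), though not without control library 1. Few reads limit what can be said of the size for NRG1 and EPGN.

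BTC, which is cut by ADAM10 rather than ADAM17, was the exception. It was at 4.25, 3.001 and 2.14 CPM in almonertinib libraries, against 2.09, 4.27 and 2.19 CPM in control libraries, and the groups overlapped. Its log2 fold change was 0.15, with a 95% interval of -0.44 to 0.74 (edgeR adjusted p = 0.669), an interval that leaves out the changes of the other EGFR ligands. In this comparison 56.7% of all genes tested passed in either direction and 27.8% fell. EPGN and NRG1 passed the filter on low counts only through the control and paclitaxel libraries, the groups where they are high, so their falls are given as values and not counted here or against paclitaxel. Of the other 5 ligands, 4 fell.

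**Figure D2:**
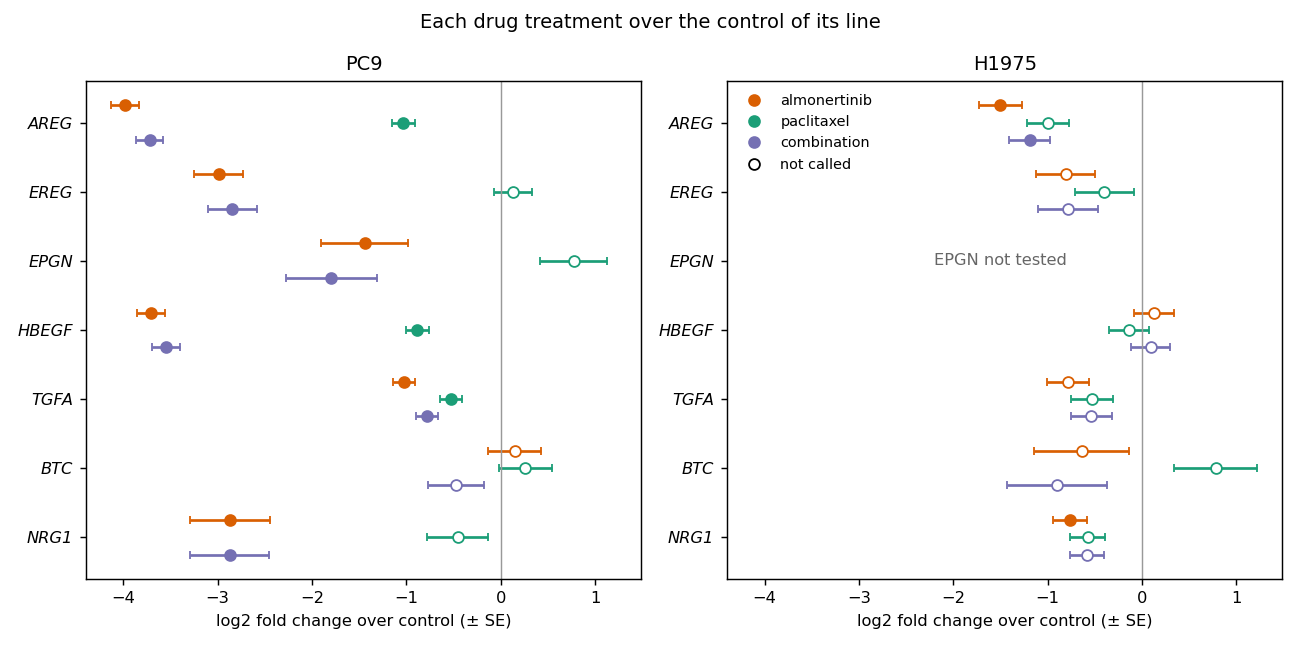
Log2 fold change over the control of the same line (horizontal axis, ± SE) for the 7 ligands under almonertinib, paclitaxel and the combination, in PC9 on the left and H1975 on the right. Filled points passed an adjusted p of 0.05 and open points did not. In PC9 the almonertinib and combination points lie close together for AREG (-3.98 and -3.72) and far left of paclitaxel (-1.03), and in H1975 HBEGF lies near 0 under all 3 treatments.

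Paclitaxel alone lowered AREG, HBEGF and TGFA in PC9, each by less than almonertinib did. AREG was at 14.5, 13.8 and 15.0 CPM in paclitaxel libraries, against 30.5, 30.0 and 26.6 CPM in control libraries. HBEGF was at 19.4, 18.5 and 16.4 CPM in paclitaxel libraries, against 30.0, 33.7 and 35.3 CPM in control libraries. Neither gene overlapped, and the changes were -1.03 ± 0.12 for AREG and -0.88 ± 0.12 for HBEGF (edgeR adjusted p = 6.03e-06 and 3.75e-05). TGFA averaged 20.6 ± 1.36 CPM in paclitaxel libraries and 29.3 ± 2.30 CPM in control libraries (SD, n = 3 each), a change of -0.53 ± 0.12 (edgeR adjusted p = 0.00136). In this comparison 55% of all genes tested passed and 28% fell, so passing alone does not set these ligands apart.

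EREG did not follow AREG and HBEGF under paclitaxel. It was at 9.26, 8.82 and 5.57 CPM in paclitaxel libraries, against 7.84, 8.12 and 5.31 CPM in control libraries, and the groups overlapped (0.13 ± 0.20, 95% interval -0.30 to 0.56, edgeR adjusted p = 0.613). EPGN had 27, 28 and 36 reads in paclitaxel libraries and 17, 8 and 13 reads in control libraries: the groups did not overlap in CPM, yet 0.77 ± 0.36 did not pass (edgeR adjusted p = 0.0752). For BTC 0.26 ± 0.28 and for NRG1 -0.46 ± 0.32 did not pass either. The transcript is 4619 bases long for EREG, 4310 for TGFA and 1240 for AREG. Across genes, the log2 deviation of PC9 paclitaxel libraries from the mean of the line went with transcript length. Spearman rho was 0.277 ± 0.0261, against -0.173 ± 0.0517 in control libraries (SD, n = 3 each). With that trend and GC content removed, EREG stood at -0.70 and NRG1 at -0.81, both past the threshold, where 52.3% of all genes passed under that setting, and BTC stood at -0.26. AREG, HBEGF and TGFA kept their direction and call, with TGFA at -0.65. Whether length or GC content moved EREG was not tested.

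With both drugs the PC9 ligands lay close to their levels under almonertinib alone. AREG was at 2.03, 2.25 and 2.33 CPM, HBEGF at 2.37, 2.84 and 3.22 CPM and EREG at 0.872, 1.10 and 0.990 CPM in combination libraries. Against the control 4 of the 5 ligands that passed the filter in every group fell, with 50.7% of all genes past the threshold and 26% falling. The changes were -2.85 ± 0.26 for EREG (edgeR adjusted p = 2.47e-07), -0.78 ± 0.12 for TGFA (4.73e-05), -1.79 ± 0.48 for EPGN (0.00556) and -2.88 ± 0.42 for NRG1 (3.39e-05), beside -3.72 for AREG and -3.55 for HBEGF. BTC was at 1.84, 2.38 and 1.88 CPM in combination libraries, against 2.09, 4.27 and 2.19 CPM in control libraries, and -0.47 ± 0.29 did not pass (edgeR adjusted p = 0.190). With the length and GC trend removed BTC stood at -0.62 and passed, where 58.4% of all genes did.

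Between combination and almonertinib none of the 7 ligands passed in edgeR or in DESeq2, where 20.1% of all genes did in edgeR and 2711 genes in DESeq2. EPGN and NRG1 were low in both groups, with at most 7 and 10 reads in a library. BTC alone had an unadjusted p under 0.05, where 4390 of the 12796 genes did. The CPM ranges of the groups overlapped, for TGFA only just, with a lowest combination value of 16.6161 and a highest almonertinib value of 16.6162. The log2 difference was 0.26 for AREG (95% interval -0.10 to 0.62), 0.15 for HBEGF (-0.21 to 0.51), 0.14 for EREG (-0.53 to 0.82) and 0.24 for TGFA (-0.01 to 0.50). For BTC it was -0.62 ± 0.28 (edgeR adjusted p = 0.129). Without almonertinib library 3, which stood apart, the BTC difference was -0.83 and passed.

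Against paclitaxel alone, 4 of the 5 ligands that passed the filter in every group fell in combination libraries. Over all genes 44.1% passed the threshold and 22.4% fell. The changes were -2.69 ± 0.14 for AREG, -2.97 ± 0.25 for EREG, -2.67 ± 0.15 for HBEGF, -2.57 ± 0.42 for EPGN and -2.42 ± 0.42 for NRG1 (edgeR adjusted p = 3.25e-09, 3.42e-07, 4.25e-09, 0.000165 and 0.000271 in that order). EPGN and NRG1 passed the filter only through control and paclitaxel libraries, where they are high, so their changes are given as values and not counted. BTC fell by 0.74 ± 0.28 on the log2 scale (edgeR adjusted p = 0.0408), a call that held in only 1 of 6 fits that left out a library. TGFA differed by -0.25 ± 0.12 and did not pass (edgeR adjusted p = 0.0918).

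The drug interaction was taken on the log2 scale as the combination change less the sum of the single-drug changes. It was 1.29 ± 0.21 for AREG, 1.04 ± 0.21 for HBEGF and 0.77 ± 0.17 for TGFA (edgeR adjusted p = 0.000142, 0.000951 and 0.0015). These are the 3 ligands that paclitaxel alone lowered. The interaction holds the paclitaxel change from the same libraries with its sign turned, so their positive values are not a result separate from that fall. A positive value means that the combination lowered the gene less than the sum of the changes under each drug. The other 4 ligands did not pass, with EREG at 0.01 (95% interval -0.75 to 0.77) and BTC at -0.88 ± 0.39 (edgeR adjusted p = 0.0777). Over all genes 45.5% passed this test, 22.1% with a positive value. With the length and GC trend removed EREG stood at 1.13 and passed.

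In H1975 the same drug left most ligands closer to the control. AREG was at 4.06, 5.76 and 5.04 CPM in almonertinib libraries, against 12.7, 12.4 and 16.96 CPM in control libraries, without overlap, and fell by 1.4999 ± 0.22 on the log2 scale (edgeR adjusted p = 0.00145). NRG1 was at 5.98, 6.66 and 7.43 CPM in almonertinib libraries, against 11.8, 11.7 and 10.4 CPM in control libraries, without overlap, and fell by 0.76 ± 0.18 (edgeR adjusted p = 0.0440). The NRG1 call held in only 1 of 6 fits that left out a library. TGFA was at 11.8, 8.92 and 11.3 CPM in almonertinib libraries, against 14.5, 15.4 and 24.2 CPM in control libraries, and -0.78 ± 0.22 did not pass although the groups did not overlap (edgeR adjusted p = 0.102). It passed under 4 of 9 other settings, DESeq2 among them, and in 1 of 6 fits that left out a library. Control library 3, one of those that stood apart, holds the highest value.

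HBEGF, the gene that fell 13.05-fold in PC9, did not pass in H1975. It was at 3.28, 3.46 and 2.73 CPM in almonertinib libraries, against 2.64, 2.88 and 3.07 CPM in control libraries, and the groups overlapped (0.13 ± 0.21, edgeR adjusted p = 0.939). EREG averaged 1.58 ± 0.515 CPM in almonertinib libraries and 2.82 ± 1.03 CPM in control libraries (SD, n = 3 each), with overlap (-0.81 ± 0.31, edgeR adjusted p = 0.310). BTC had 2, 10 and 7 reads in almonertinib libraries and 7, 7 and 15 reads in control libraries (-0.64 ± 0.50, not past the threshold), and it passed the filter on low counts only through the paclitaxel libraries. EPGN had 1 read in all 12 H1975 libraries together and was not tested. In all 2 of 6 tested ligands fell, where 1.95% of all genes passed and 0.599% fell, and DESeq2 called 3 ligands and 353 genes. Without the 4 libraries that stood apart 3 of 6 fell (AREG, NRG1 and TGFA, at -1.20, -0.72 and -0.55), but 45.4% of all genes then passed.

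Under paclitaxel in H1975 none of 6 ligands passed in edgeR, where 0.64% of all genes passed. DESeq2 called 1 ligand and 172 of the 12345 genes. An unadjusted p under 0.05 was found for 3 ligands and for 1007 genes. AREG was at 7.16, 7.87 and 6.27 CPM in paclitaxel libraries, against 12.7, 12.4 and 16.96 CPM in control libraries. The groups did not overlap, and -0.996 ± 0.22 fell just outside the threshold (edgeR adjusted p = 0.0556). Under 7 of 9 other settings AREG passed, among them DESeq2 and the fit without the libraries that stood apart, but in none of 6 fits that left out 1 library. Without the libraries that stood apart 2 of 6 ligands passed, where 8.83% of all genes did. NRG1 at -0.57 ± 0.18 did not overlap either and did not pass (edgeR adjusted p = 0.269).

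With both drugs 1 of 6 ligands fell in H1975, where 2.46% of all genes passed. AREG was at 6.23, 4.91 and 7.42 CPM in combination libraries, against 12.7, 12.4 and 16.96 CPM in control libraries, without overlap (-1.19 ± 0.22, edgeR adjusted p = 0.0110), and the call was lost without combination library 1 or 2. NRG1 at -0.58 ± 0.18, TGFA at -0.54 ± 0.22, EREG at -0.78 ± 0.32, BTC at -0.90 ± 0.53 and HBEGF at 0.09 ± 0.21 did not pass. Without the libraries that stood apart 2 of 6 fell (AREG and NRG1), where 34.9% of all genes passed. Between the combination and almonertinib, and between the combination and paclitaxel, 0% of genes passed in edgeR, with 1230 and 1704 genes at an unadjusted p under 0.05 and 41 and 478 genes called by DESeq2. No ligand was called by either tool there, and only BTC against paclitaxel had an unadjusted p under 0.05. Without the libraries that stood apart 34.3% and 33% of all genes passed in these 2 comparisons, with 0 and 1 ligands called. The H1975 interaction passed for no ligand and for 0.672% of all genes. DESeq2 called 1 ligand and 249 genes, and 3 ligands and 1267 genes had an unadjusted p under 0.05. AREG had a value of 1.30 ± 0.32 (edgeR adjusted p = 0.0924). Without the libraries that stood apart 3 ligands passed the interaction test, where 32.9% of all genes did.

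The responses of the lines were compared in 1 fit of all 24 libraries, as PC9 minus H1975, where a negative value means a larger fall in PC9. For almonertinib the difference was -3.85 ± 0.24 for HBEGF, -2.50 ± 0.25 for AREG, -2.199 ± 0.41 for EREG and -2.12 ± 0.43 for NRG1 (edgeR adjusted p = 2.28e-11, 1.32e-07, 0.000558 and 0.00124). These 4 of 7 ligands passed, where 16.6% of all genes passed and 11% with a negative value. TGFA did not, with a difference of -0.26 and a 95% interval of -0.77 to 0.25 (edgeR adjusted p = 0.509). For the combination the same 4 ligands passed, at -3.66 ± 0.24 for HBEGF, -2.54 ± 0.25 for AREG, -2.07 ± 0.41 for EREG and -2.30 ± 0.43 for NRG1, where 18% of all genes passed. For paclitaxel only HBEGF passed (-0.74 ± 0.23, edgeR adjusted p = 0.0283), where 17.1% of all genes passed, and it did not pass in 8 of 12 fits that left out a library. The paclitaxel response of AREG differed by -0.03 (95% interval -0.51 to 0.46). EPGN is given no such value, since H1975 had 1 read in all.

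The lines also differed without drug. In control libraries AREG, EREG, HBEGF, TGFA and BTC were higher in PC9 and NRG1 was lower, where 68.7% of all genes passed and 34.9% of all genes were higher in PC9. HBEGF stood out: its 29.96 to 35.3 CPM in PC9 controls compare with 2.64 to 3.07 CPM in H1975 controls (3.52 ± 0.17, edgeR adjusted p = 1.24e-15). BTC differed by 2.56 ± 0.37, EREG by 1.33 ± 0.26, AREG by 1.05 ± 0.16 and TGFA by 0.70 ± 0.17. NRG1 was at 1.345 to 3.03 CPM in PC9 controls and 10.4 to 11.8 CPM in H1975 controls (-2.25 ± 0.25, edgeR adjusted p = 1.91e-08). EPGN, which passed the filter only through PC9 libraries, had 38 reads over the PC9 controls and none over the H1975 controls, at least 15.9-fold higher in PC9 when 3 reads over the group are taken as the floor. After almonertinib the HBEGF of PC9 (2.51 ± 0.322 CPM) lay beside that of H1975 (3.15 ± 0.379 CPM, SD, n = 3 each).

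**Figure D3:**
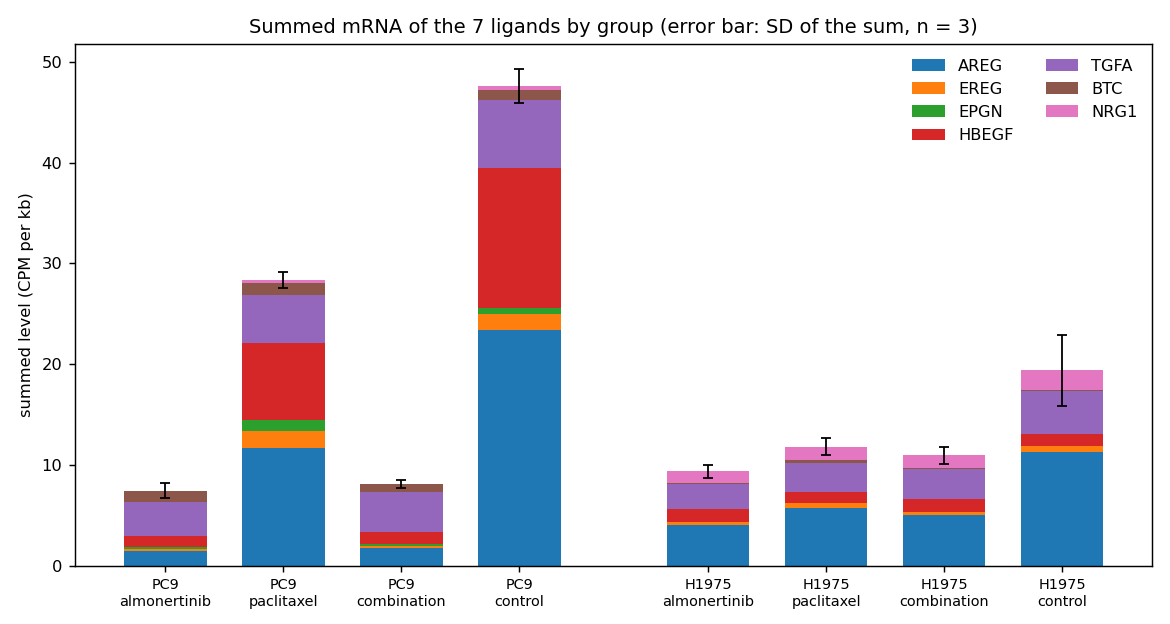
Summed level of the 7 ligands in CPM per kilobase of transcript (bars start at 0, split by gene, mean of 3 libraries, error bar the SD of the sum) for almonertinib, paclitaxel, combination and control in each line. The PC9 almonertinib and combination bars reach 7.45 and 8.12, against 47.6 for the PC9 control, and the H1975 almonertinib bar reaches 9.36, against 19.4 for the H1975 control.

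Per kilobase of transcript, so that genes can be set beside each other, the 7 ligands summed to 7.45 ± 0.727 under almonertinib, 28.4 ± 0.798 under paclitaxel, 8.12 ± 0.369 under the combination and 47.6 ± 1.69 in the control of PC9 (CPM per kb, SD, n = 3 each). In H1975 the sums were 9.36 ± 0.605, 11.8 ± 0.876, 10.95 ± 0.858 and 19.4 ± 3.51 in the same order. The makeup changed along with the sum. In PC9 AREG made up 19.97% ± 4.47 of the sum under almonertinib and 49.1% ± 2.10 in the control, and HBEGF 14.1% ± 1.12 under almonertinib and 29.1% ± 3.17 in the control. TGFA made up 44.6% ± 3.97 under almonertinib and 14.3% ± 1.13 in the control, and became the leading ligand. In H1975 AREG stayed the leading ligand, with 42.5% ± 4.87 under almonertinib and 58.3% ± 1.25 in the control. NRG1 made up 12.04% ± 0.843 there under almonertinib and 10.1% ± 2.29 in the control, but under 1% in both groups of PC9.

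**Figure D4:**
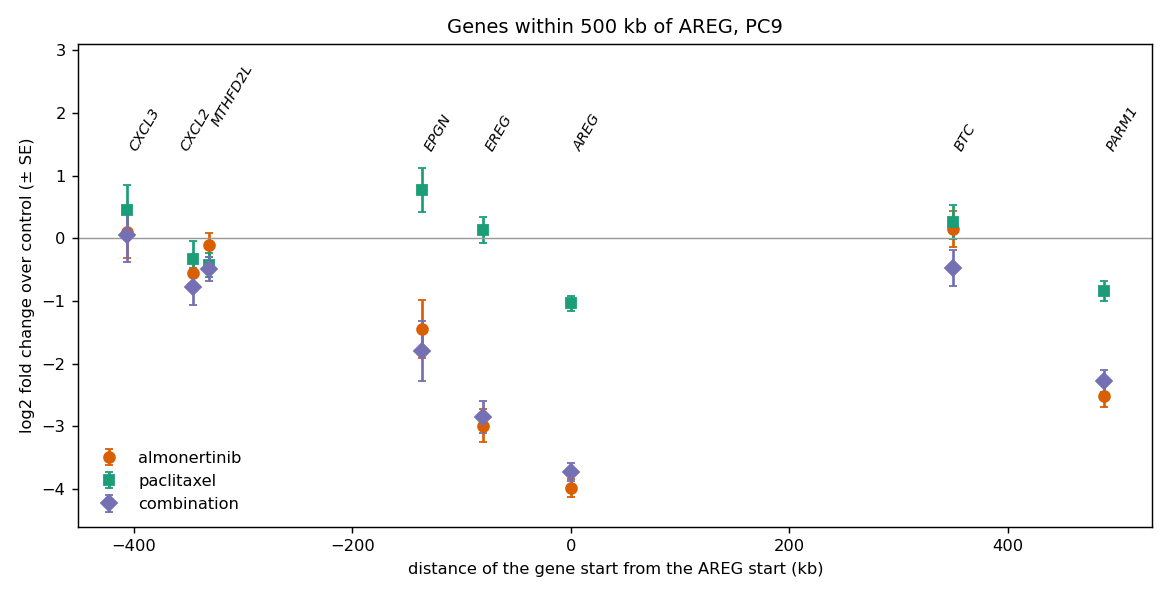
Log2 fold change over the PC9 control (vertical axis, ± SE) of the protein-coding genes tested within 500 kb of AREG, by the distance of their start from the AREG start, for almonertinib, paclitaxel and the combination. EPGN, EREG and AREG lie between -1.44 and -3.98 under almonertinib, while CXCL3 and MTHFD2L upstream and BTC downstream lie near 0 and PARM1 lies at -2.51.

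On chromosome 4 the start of EREG lies 80.0 kb and that of EPGN 137 kb before the AREG start, and that of BTC lies 350 kb after it. Under almonertinib in PC9 the neighbouring ligands EREG and AREG fell, where 27.8% of all genes did, while BTC, farther downstream, did not pass. EPGN stood at -1.44 ± 0.46, on few reads and with a call lost without control library 1. It passed the filter only through control and paclitaxel libraries, so it is not counted with them. The chemokine genes CXCL3 and CXCL2 and the metabolic gene MTHFD2L, 406 kb to 331 kb before AREG, had values of 0.10 ± 0.41, -0.55 ± 0.29 and -0.11 ± 0.19, none past the threshold. PARM1, a mucin-like membrane protein gene 488 kb after AREG and beyond BTC, fell by 2.51 ± 0.18 (edgeR adjusted p = 9.86e-09) and had no reads in H1975. Under paclitaxel AREG and PARM1 fell (-0.84 ± 0.16 for PARM1), while EREG, EPGN, BTC and the chemokines did not pass. Under the combination CXCL2 (-0.77 ± 0.29) and MTHFD2L (-0.48 ± 0.19) also fell, beside PARM1 (-2.28 ± 0.18). PF4, PPBP and CXCL5, also in this interval, were too low to test.

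Among the 3 ERBB receptors tested in PC9, ERBB3 and ERBB2 rose under almonertinib (1.12 ± 0.09 and 0.84 ± 0.09) and EGFR fell by 0.65 ± 0.13 on the log2 scale. ERBB4 had 2 reads in all 24 libraries. In H1975 ERBB3 stood at 0.47 ± 0.16 under almonertinib and did not pass, and it rose under the combination (0.81 ± 0.16, edgeR adjusted p = 0.0151). Of 12 genes for shedding and transport of the ligands, 4 rose and 2 fell in PC9 under almonertinib, with a median of 0.16 against 0.03 over all genes. With 56.7% of all genes past the threshold this count is no more than the background, and its members are given as values. ADAM9 and ADAM10, which cut membrane precursors, rose by 1.06 ± 0.13 and 1.22 ± 0.17. TIMP3, which inhibits ADAM17, fell by 1.49 ± 0.10, and NKD2, which carries TGFA to the cell surface, fell by 0.91 ± 0.15. ADAM17 itself stood at 0.22 ± 0.12 and did not pass (edgeR adjusted p = 0.130). In H1975 1 of 11 tested genes of this list fell, NKD2 (-0.98 ± 0.24), where 1.95% of all genes passed under almonertinib and 0.599% fell.

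**Figure D5:**
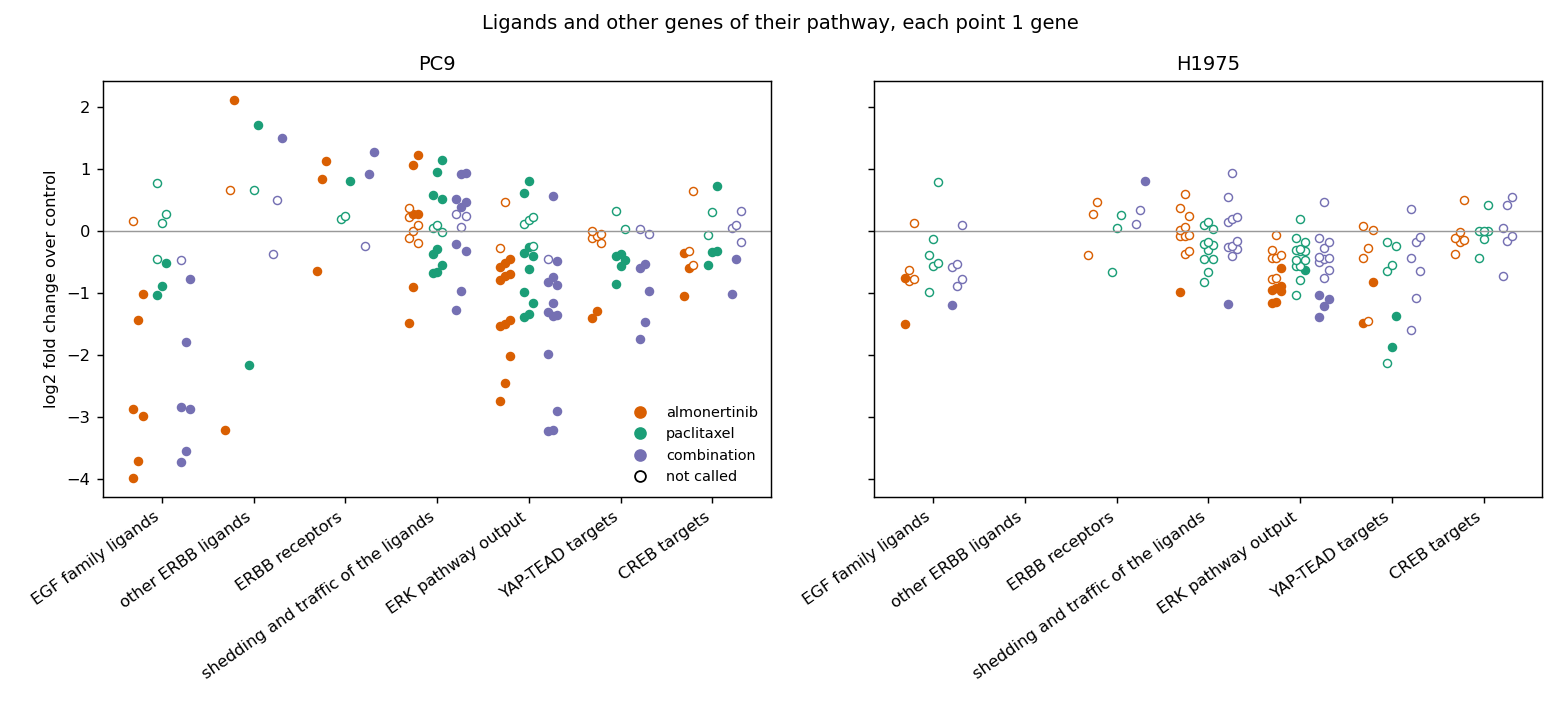
Log2 fold change over the control of the same line for each tested gene of the ligands and of 6 other lists, under almonertinib, paclitaxel and the combination, in PC9 on the left and H1975 on the right. Filled points passed an adjusted p of 0.05 and open points did not. In PC9 12 of 14 ERK output genes fell under almonertinib, with a median of -0.76.

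Of 14 genes whose transcription follows ERK activity, 12 fell in PC9 under almonertinib, where 27.8% of all genes fell. The median was -0.76 against 0.03 over all genes, with the smallest p for PHLDA1 (-2.75) and FOSL1 (-2.45). With both drugs 12 fell and 1 rose, with a median of -1.24, where 26% of all genes fell and 24.7% rose. Under paclitaxel 8 fell and 2 rose in PC9, where 28% of all genes fell, with a median of -0.31, and the smallest p was that of PHLDA1 (-1.16) and SPRY2 (-1.39), a feedback inhibitor of the pathway. In H1975 7 of 14 fell under almonertinib, 4 under the combination and 1 under paclitaxel, where 0.599%, 0.697% and 0.194% of all genes fell. Under almonertinib and the combination these had medians of -0.76 and -0.48, and the smallest p was that of DUSP4 (-0.93 and -1.03), a phosphatase that acts on ERK. By the test of the difference between the lines, 5 of the 14 fell further in PC9 under almonertinib, with a median of -0.34 against -0.02 over all genes, where 11% of all genes did. Of 7 YAP-TEAD targets 2 fell in PC9 under almonertinib, CCN1 (-1.40) and AXL (-1.30), a share near the 27.8% of all genes that fell, and 2 fell in H1975, CCN1 (-0.82) and CCN2 (-1.48). Of 6 tested CREB targets 3 fell in PC9 against the same background, CREM (-1.06) and NR4A1 (-0.60) among them, and in H1975 CREM stood at -0.19 ± 0.21 and did not pass.

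For each ligand tested in both lines, the closest genes over the 8 groups were those with the smallest root mean square difference of levels. Levels were taken as log2 of CPM plus 0.5, centred within each line. AREG was closest to MARCHF4 (0.279), TCN1 (0.337) and SH2D2A (0.359), on a scale where AREG itself varies by 1.17. Among the genes closest to HBEGF were PLXNA4 (0.319) and PHLDA1 (0.339). EREG was closest to COL13A1 (0.176), PHLDB2 (0.291) and ITGA2 (0.297), whose changes under paclitaxel alone in PC9 were -0.08, -0.23 and 0.35, none past the threshold. Among those closest to TGFA were FXYD5 (0.0724) and PITPNC1 (0.085). NRG1 was closest to HAS3 (0.0898), ETS1 (0.111) and CHAC1 (0.157), and BTC to MRPL47 (0.115), U2AF1 (0.121) and MRPS22 (0.122). BTC itself varied by 0.280 on that scale. The added 0.5 CPM narrows differences between low levels, which touches NRG1 in PC9, BTC in H1975 and matches of AREG, EREG and HBEGF. MARCHF4, TCN1, COL13A1 and PLXNA4 averaged 0.838, 0.783, 0.978 and 0.261 CPM in PC9 almonertinib libraries. Under almonertinib in PC9 the fit gave -5.33 for MARCHF4, -5.21 for TCN1 and -2.89 for SH2D2A, against -3.98 for AREG. In the fit NRG1 stood at -2.87 under almonertinib in PC9, against -1.93 for HAS3, -1.91 for ETS1 and -1.98 for CHAC1. With 8 group means and at least 9653 candidate genes such closeness is a description.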

How the data were processed

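24 libraries were made from total RNA after TRIzol extraction with a SMART-RNAseq kit, per the labels. The authors deposited raw counts per gene, made with HISAT2 2.2.1 and HTSeq on GRCh38 per the submitters' processing notes; the annotation and the strand counted are not given in the sources used here. Totals of 14232299 to 24245314 reads make counting error small except for genes with few reads, whose reads are given. The 7 ligands and the other lists were chosen with earlier results of these data known. Genes were filtered with filterByExpr and TMM-scaled, and each line's 12 libraries were fitted in edgeR 4.0.16 (quasi-likelihood, two-sided, R 4.3.3), with a fit of all 24 for differences between lines. P-values were Benjamini-Hochberg adjusted over all genes tested, with calls under 0.05. An SE is the fold change over the root of its F statistic. The procedure was tested on simulated data, where false calls ran somewhat above the nominal rate, so calls close to the threshold are less certain. CPM use the TMM factors of all 24 libraries, and CPM per kb the longest protein-coding transcript of GENCODE v29. Named genes were the 7 ligands, the 3 genes closest to each (some are not reported here), protein-coding genes within 500 kb of AREG, and in each list up to 2 called genes each way with the smallest p; ADAM17 was added after its values were seen. A shared repeat number marked libraries that deviated together (all 3 correlations over 0.1) only in PC9 almonertinib against control (0.119, 0.106 and 0.394) and H1975 combination against control (0.110, 0.169 and 0.345), where a repeat term changed no call. Alternatives were RLE factors, other count filters, DESeq2 1.42.0, a repeat term, other sets of libraries, removal of a length and GC trend, and leaving out each library. No protein sequences were used.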

Additional observations from a re-analysis of the deposited data

Results flagged for a closer look

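The response of a ligand differed between the lines, by a test of the difference itself in the fit of all 24 libraries, in 9 cases. Under almonertinib HBEGF (-3.85), AREG (-2.50), EREG (-2.199) and NRG1 (-2.12) fell further in PC9 than in H1975, on the log2 scale. The same 4 ligands did so under the combination, at -3.66 for HBEGF, -2.54 for AREG, -2.07 for EREG and -2.30 for NRG1. These 8 differences passed in each of 12 fits that left out a library, with ranges of -3.96 to -3.75 for HBEGF and -2.66 to -2.37 for AREG under almonertinib. Under paclitaxel HBEGF differed by -0.74, which passed in 4 of 12 such fits. The lines received different doses, and how much of a difference is due to line or dose cannot be told apart.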

How the results depend on the processing

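Called ligands kept their direction under every alternative run, EPGN between the controls not being among them. Leaving out 1 library gave 324 values for called ligands, of which 303 stayed called and 21 did not; the other alternatives gave 333 values, of which 325 stayed called. The stricter filter tested only 3 ligands (AREG, HBEGF and TGFA in PC9 and across lines, NRG1 in place of HBEGF in H1975), so the ligands called were 3 in PC9 almonertinib and combination against control, 2 in PC9 combination against paclitaxel, 1 in H1975 almonertinib against control, 2 in the almonertinib and combination responses between lines and 3 between the controls. With no filter, 1 was called in H1975 almonertinib against control and 1 in H1975 paclitaxel against control. RLE factors, DESeq2, the fit of all 24 libraries and the trend removal also called 1 in H1975 paclitaxel against control, as did the fit of only 2 groups, which called 0 in H1975 almonertinib and 2 in H1975 combination against control. Trend removal called 5 in PC9 paclitaxel, 4 in H1975 almonertinib and 3 in H1975 combination against control. Over all genes 52.3%, 8.68% and 14.5% passed there. It called 7 in PC9 combination against control, BTC among them, where 58.4% of all genes passed. For the H1975 interaction DESeq2, trend removal and the fit of 24 each called 1, and the fit of 24 called 1 in H1975 combination against paclitaxel. Without the 4 libraries that stood apart, 1 was called in PC9 combination against almonertinib, where 32.4% of all genes passed. In H1975 that fit called 2 in paclitaxel against control (8.83% of all genes) and 2 in combination against control (34.9%). It called 1 in H1975 combination against paclitaxel (33%) and 3 in the H1975 interaction (32.9%). The cause was not tested for these shifts other than the stricter filter.

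Values that changed sign were all of uncalled ligands. Trend removal gave -0.27 for BTC under almonertinib in PC9, -0.70 for EREG and -0.26 for BTC under paclitaxel in PC9, -0.0547 for HBEGF under the combination in H1975 and 0.0789 for the AREG paclitaxel difference between lines, which was 0.0371 under the stricter filter. The EREG interaction in PC9 was -0.00020 in the fit of 24 and -0.12 without the 4 libraries, where BTC under almonertinib in H1975 was 0.0463. Leaving out 1 library moved these from -0.19 to 0.0546 (AREG paclitaxel difference), -0.00118 to 0.17 (HBEGF, H1975 combination), -0.12 to 0.55 (BTC, PC9 almonertinib), -0.19 to 0.18 (EREG interaction) and -0.0416 to 0.35 (EREG, PC9 paclitaxel). It moved the ligands called to 0 to 1 (H1975 interaction, 1 without almonertinib 1), 1 to 3 (H1975 almonertinib), 0 to 1 (paclitaxel response between lines), 0 to 1 (H1975 combination) and 0 to 1 (PC9 combination against almonertinib). A replicate block lost NRG1 in H1975 almonertinib against control, leaving 1 ligand, and gained EPGN in PC9 paclitaxel against control (0.79) and BTC in the PC9 interaction (-0.90), in comparisons where the numbers did not pair all libraries, and changed no other call. Depth limits EPGN, NRG1 in PC9 and BTC in H1975, whose groups of 3 libraries held 14 to 117 reads.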

Other observations

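The ERBB ligand genes outside the 7 were scarce, and in PC9 EGF and NRG2 passed. EGF had 62, 57 and 28 reads under almonertinib, 52, 43 and 26 under paclitaxel, 31, 31 and 34 under the combination and 12, 10 and 4 in control libraries. It rose against the control under each treatment, by 2.11 ± 0.37, 1.70 ± 0.38 and 1.49 ± 0.39 on the log2 scale (edgeR adjusted p = 0.000154, 0.00146 and 0.00462). NRG2, a neuregulin that binds ERBB3 and ERBB4, had 1, 4 and 2 reads under almonertinib, 3, 9 and 4 under paclitaxel, 14, 21 and 17 under the combination and 13, 20 and 18 in control libraries. Each drug alone lowered it (-3.21 ± 0.51 and -2.17 ± 0.43, edgeR adjusted p = 5.24e-05 and 0.000592), while under both together it stood at -0.38 ± 0.35 and did not pass (edgeR adjusted p = 0.385). The interaction for NRG2 was 4.99 ± 0.67 (edgeR adjusted p = 2.88e-05). Its combination level lay beside the control, whereas those of AREG and HBEGF lay beside almonertinib alone. By these reads NRG2 passed the filter on low counts only through combination and control libraries, and EGF only through treated libraries. Those are the groups where each is high, so their changes are given as values. Over all genes in PC9, 56.7% passed under almonertinib, 55% under paclitaxel, 50.7% under the combination and 45.5% in the interaction. The NRG2 reads are few, and the gene was singled out after its values were seen. In H1975 EGF, NRG2 and NRG4 were too low to test, and NRG3 had no reads in any library.

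TIMP3, the ADAM17 inhibitor, had 1 read in the 12 H1975 libraries together, against 1323 to 2047 reads in each PC9 control library. In PC9 it was at 31.2 to 36.2 CPM under almonertinib, 74.9 to 90.4 CPM under paclitaxel, 39.1 to 40.9 CPM under the combination and 89.6 to 107 CPM in control libraries, without overlap between almonertinib or combination and control.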
